A study of Mus musculus with 6 samples.

Results

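The genes described here are 44 genes of ribosome biogenesis and translation, measured in the livers of mice given FGF15 or FGF19. They are a list of gene names, and the rule takes every probe set of the array that the platform annotation pairs with exactly 1 gene on the list and uses no measured value, although the list was drawn up with earlier results of these data known. This gave 72 of the 22690 probe sets. They belong to 37 of the 44 genes, out of 12393 genes that a probe set represents alone, and all 37 passed the filter on low signals. Dkc1, Nob1, Mrto4, Eif4g1, Eif2s1, Rps6kb1 and Rps6ka1 have no probe set paired with them alone and are not analysed here. The samples were whole livers of wild-type male C57Bl/6 mice, taken 6 h after a jugular injection of vehicle, purified FGF15 or recombinant FGF19, with food withheld in all 3 groups. RNA was hybridised to the Affymetrix Mouse Genome 430A 2.0 array, with 2 arrays per group and 6 in all. The labels do not say if a group's arrays are from different animals, and the p-values then cover only the variation among these arrays, which may be technical. The doses and the composition of the vehicle are likewise not given in the sources used here.

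Ribosomes are built in the nucleolus. RNA polymerase I transcribes the precursor ribosomal RNA, small nucleolar ribonucleoproteins (snoRNPs) guide its methylation and pseudouridylation, and assembly factors cleave, fold and export the small and large subunits. Translation then starts when eIF4E binds the cap of an mRNA, a step that the eIF4E-binding proteins block until the kinase mTORC1 phosphorylates them. FGF15 is the mouse orthologue of human FGF19, a hormone that the ileum releases after a meal. In mouse liver FGF19 is known to raise protein synthesis through ERK and the RSK kinases, which phosphorylate ribosomal protein S6 and the initiation factor eIF4B. The arrays measure transcripts and hold no phosphorylation or protein.

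The promoters of the members that changed are shown because Nolc1 and Nip7 rose together after FGF19. The RefSeq promoter table (build GRCm38.p6) holds 39 of the 44 members and 4 of the 6 that changed. Each window is the 150 bases before the annotated start on the coding strand, 5′ to 3′, with capitals marking an ETS-type motif, CCGGAAG or its reverse complement CTTCCGG. These are chr19:46075697-46075846 (+) for Nolc1, chr8:107056727-107056876 (+) for Nip7, chr10:61452670-61452819 (-) for Eif4ebp2 and chr9:56937350-56937499 (+) for Imp3.
Nolc1: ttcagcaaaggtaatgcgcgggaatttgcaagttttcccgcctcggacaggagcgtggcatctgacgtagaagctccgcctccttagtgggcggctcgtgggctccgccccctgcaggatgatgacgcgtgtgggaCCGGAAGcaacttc
Nip7: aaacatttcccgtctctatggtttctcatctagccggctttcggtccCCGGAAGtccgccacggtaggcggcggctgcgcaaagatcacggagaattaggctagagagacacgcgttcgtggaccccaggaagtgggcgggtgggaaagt
Eif4ebp2: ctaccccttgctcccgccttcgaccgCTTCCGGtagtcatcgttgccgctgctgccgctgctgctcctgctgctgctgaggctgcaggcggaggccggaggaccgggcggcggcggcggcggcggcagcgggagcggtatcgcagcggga
Imp3: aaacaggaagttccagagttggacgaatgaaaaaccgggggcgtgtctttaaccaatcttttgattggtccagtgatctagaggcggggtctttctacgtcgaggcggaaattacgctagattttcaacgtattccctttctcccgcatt

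The first base of the motif lies at position -14 from the start in Nolc1, -103 in Nip7 and -124 in Eif4ebp2. Imp3 has no exact match in this window. Only exact matches were searched, so variants of the motif are not marked or counted. The ETS-type motif and 2 others were searched on both strands, and a promoter counts as holding a motif if it has at least 1 match. The ETS-type motif was in 5.52% of the 32851 promoters of the table and in 10.3% of the 10089 promoters of the genes tested. The members tested have 41 promoters, of 32 genes, and 8 of the 41 (19.5%) hold it. These 8 are of Eif4ebp2, Gar1, Nhp2, Nip7, Nolc1, Nop2, Polr1c and Rps6. The E-box CACGTG, the motif that Myc binds, was in 4.3% of all promoters, 5.85% of those of genes tested and 9.76% of those of members (Eef2, Eif4e, Imp4 and Nop2). The cyclic AMP response element TGACGTCA was in 1.36%, 2.08% and 0 of 41. Of the 8 members with the ETS-type motif, Nolc1, Nip7 and Eif4ebp2 changed and the other 5 did not pass the test in any comparison. These matches describe letters in a window and are not evidence of a factor's binding.

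On the arrays, the scaled signal of the members was spread widely. The mean over the vehicle arrays was 64.5 at the lowest (Polr1b, a subunit of RNA polymerase I), 224 at the median and 3713 at the highest (Eef2, the factor that moves the ribosome along the mRNA). Differences below are on the scale of log2(signal + 32), and a gene is said to rise or fall at a Benjamini-Hochberg adjusted p under 0.05 over all 9685 genes tested with limma. Cyp7a1, which sets the rate of bile acid synthesis and is known to be repressed by both hormones, was used as a check that they had acted. It was measured at 2677 and 2572 with vehicle, 91.5 and 89.4 after FGF15, and 38.2 and 32.1 after FGF19.

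Few members changed with either hormone. After FGF15, 1 of 37 rose (Imp3) and 2 fell (Eif4ebp1 and Rrs1), where 5.91% of all genes tested rose and 6.67% fell. After FGF19, 3 rose (Nolc1, Nip7 and Eif4ebp2) against 6.29% of all genes. None fell by the limma test, against 7.27% of all genes, and 3 were lower at an unadjusted p under 0.05. Between the hormones, Rrs1 and Eif4ebp1 were higher after FGF19 than after FGF15 and none was lower, where 2.41% of all genes were higher and 1.89% lower. No member was lower in that comparison at an unadjusted p under 0.05 either. At the background shares, 37 genes would hold 2.19 that rose and 2.47 that fell after FGF15, 2.33 and 2.69 after FGF19, and 0.890 higher and 0.699 lower between the hormones. The members' counts lie near these numbers, and nothing particular to the members is read from them. The hormones share their vehicle arrays, so their values against vehicle are given side by side and not as independent results.

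**Figure D1:**
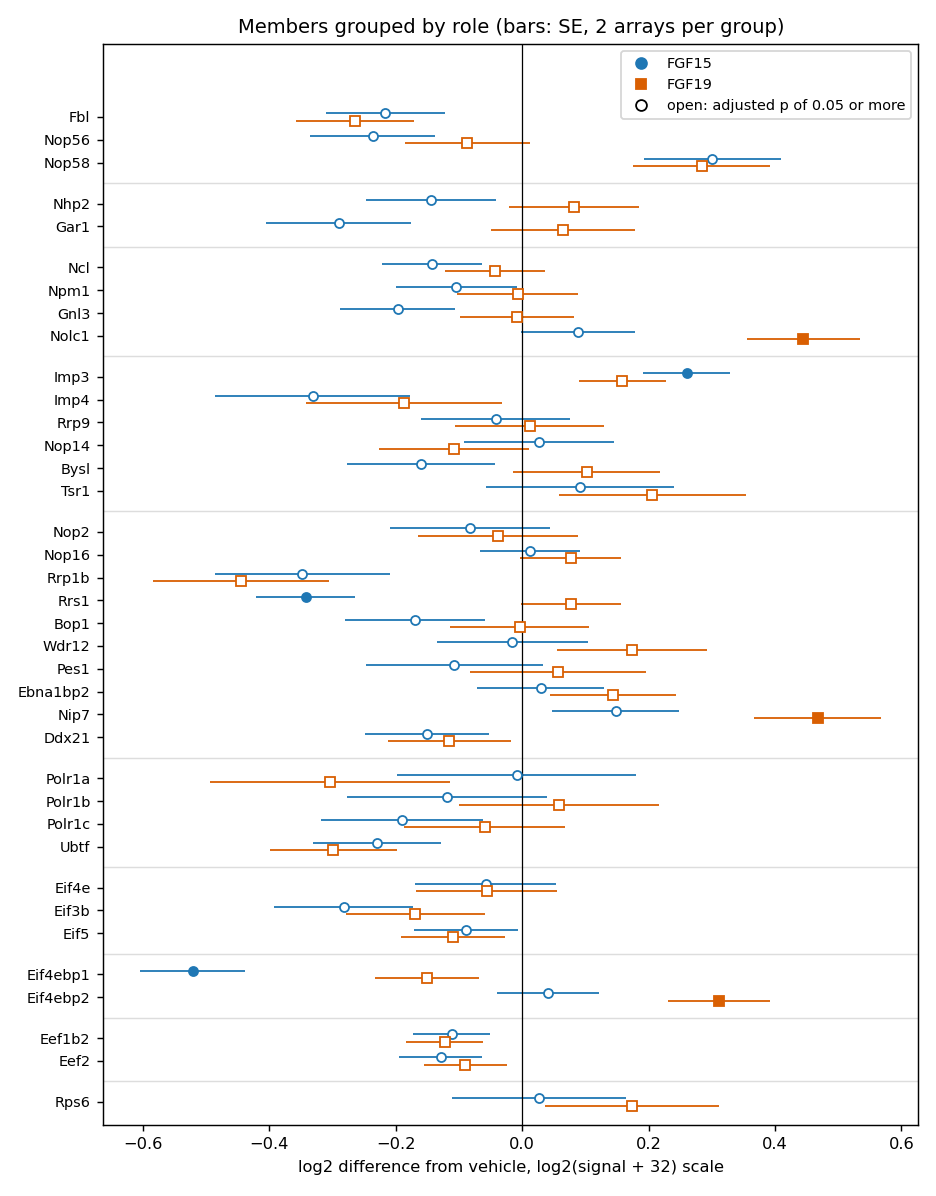
Log2 difference from vehicle of the 37 measured members, grouped by role, for FGF15 (circles) and FGF19 (squares), with limma's standard error as bars and filled symbols for an adjusted p under 0.05. After FGF15 27 of the 37 lie below 0, and after FGF19 20 do. Beyond 0.4 either way lie Eif4ebp1 after FGF15 and Rrp1b, Nolc1 and Nip7 after FGF19.

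More members lay below vehicle after FGF15 than after FGF19. After FGF15 27 of 37 differences were negative, beside 5619 of 9685 over all genes, with a median of -0.11 for the members and -0.05 for all genes. After FGF19 20 of 37 were negative, beside 5935 of 9685, with medians of -0.01 and -0.07. FGF19 minus FGF15 was positive for 28 of 37, beside 4360 of 9685, with medians of 0.11 and -0.02. The median log2 signal of the arrays was 0.12 and 0.15 lower after FGF15 and FGF19 than with vehicle. Centring each array on its median moved the members' median to 0.01 for FGF15 and 0.14 for FGF19 and that of all genes to 0.07 for both, so the sign of the members' median against vehicle turns with this choice. For FGF19 minus FGF15 it stayed positive at 0.14, with all genes at 0.01. The median of FGF19 minus FGF15 was 0.07 without FGF19 replicate 1 or without FGF15 replicate 2, and 0.05 with the mean of each gene's probe sets. The members' median signal was 199.8 and 186 on the FGF15 arrays, and 239 on replicate 1 and 195 on replicate 2 of FGF19, so FGF19 replicate 2 lies between the FGF15 arrays. FGF19 replicate 1 also stood apart on control probe sets, described with Eif4ebp2, and its part in the members' median was not tested. No test was made of these medians. After FGF15 34 members did not pass. On the log2(signal + 32) scale, the 95% interval of 32 lay within a 1.5-fold change either way, the exceptions being Imp4 and Rrp1b. After FGF19 the count was again 32 of 34, the exceptions being Polr1a and Rrp1b. These intervals are of 1 probe set per gene, and this scale understates changes in the signal of dim members. On another probe set, for example, the interval of Polr1a was -1.25 to 0.20 after FGF15.

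**Figure D2:**
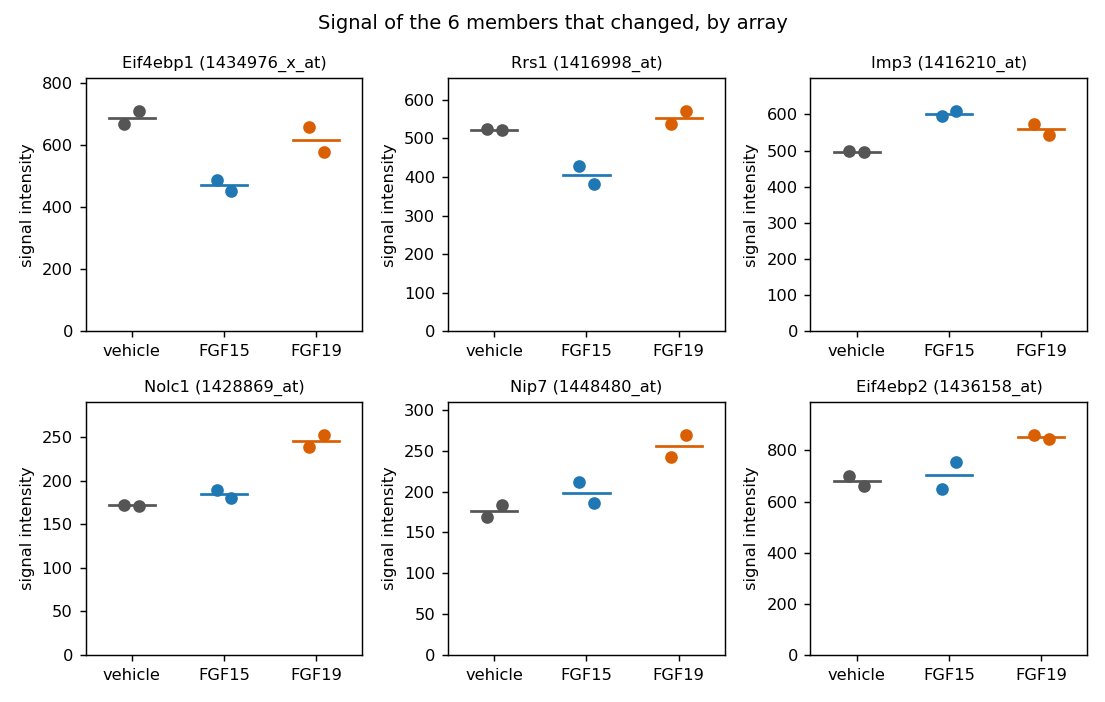
Scaled signal of the 6 members that changed in a comparison, with 1 point per array and a line at the mean of the 2 arrays of a group. Eif4ebp1 and Rrs1 are lowest on both FGF15 arrays, Imp3 is lowest on both vehicle arrays, and Nolc1, Nip7 and Eif4ebp2 are highest on both FGF19 arrays.

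Among the factors that build the small subunit, Imp3 rose after FGF15. Imp3 is a protein of the U3 snoRNP, which the first cleavages of the precursor rRNA need. It was measured at 499 and 495 with vehicle, 595 and 608 after FGF15, and 573 and 544 after FGF19. Both hormone groups lay above both vehicle arrays, with FGF15 the higher. The increase after FGF15 was 1.2-fold (log2 0.26, 95% interval 0.11 to 0.41, SE 0.07, n = 2 arrays per group, adjusted p = 0.0352). The difference after FGF19 was 0.16 and did not pass (adjusted p = 0.165). The FGF15 call was lost with quantile normalization (adjusted p = 0.0552), with cyclic loess (0.065) and without the intensity trend (0.128). It was lost too when a single array was left out, at 0.151 and 0.153 without replicate 1 or 2 of vehicle and 0.084 and 0.136 without replicate 1 or 2 of FGF15.

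The other small-subunit factors did not pass in any comparison, apart from Imp4 in 1 fit with an array left out. Imp4, the partner of Imp3 in the U3 particle, was measured at 256 and 201 with vehicle, 209 and 143 after FGF15, and 205 and 186 after FGF19. Its groups overlap, and its difference after FGF15 was -0.33 (95% interval -0.68 to 0.01, adjusted p = 0.21), the opposite sign to Imp3. It passed as a fall after FGF15 when FGF15 replicate 1 was left out, and a dim second probe set gave 0.15. Bysl, which acts in the last steps of small-subunit maturation, differed by -0.16 after FGF15 and 0.10 after FGF19, where a second probe set gave -0.21 and -0.17. For Rrp9, another U3 protein, the differences were -0.04 and 0.01, for Nop14 0.03 and -0.11, and for Tsr1 0.09 and 0.21.

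Of the 10 measured factors of the large subunit, 1 fell after FGF15 and 1 rose after FGF19. Rrs1, which helps bring the 5S RNA particle into the early large subunit, gave 524 and 521 with vehicle, 429 and 383 after FGF15, and 537 and 570.1 after FGF19. Both FGF15 arrays lay below the other 4, and the FGF19 arrays were the highest. The decrease after FGF15 was 1.27-fold (log2 -0.34, 95% interval -0.52 to -0.17, SE 0.08, n = 2, adjusted p = 0.0195). Rrs1 was 1.34-fold higher after FGF19 than after FGF15 (log2 0.42, 95% interval 0.24 to 0.60, adjusted p = 0.0135), and FGF19 against vehicle was 0.08 (adjusted p = 0.559). The fall was lost with centring on array medians (log2 -0.23, adjusted p = 0.1), without the trend (0.0928), without FGF15 replicate 2 (0.115) and without replicate 1 (0.109) or 2 (0.0933) of vehicle. The difference between the hormones was lost without the trend (0.118) and without FGF15 replicate 2 (0.0792), FGF19 replicate 1 (0.0523) or FGF19 replicate 2 (0.0877).

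Nip7, which takes part in processing of the large subunit's RNA, rose after FGF19. Its probe set gave 169 and 183 with vehicle, 211 and 186 after FGF15, and 242.5 and 269 after FGF19. The 3 groups did not overlap and FGF15 lay between the others. The increase after FGF19 was 1.38-fold (log2 0.47, 95% interval 0.24 to 0.69, SE 0.10, n = 2, adjusted p = 0.0131). After FGF15 it differed by 0.15 (adjusted p = 0.395), and FGF19 minus FGF15 was 0.32 (adjusted p = 0.126). A second, dimmer probe set of the gene gave -0.02 for FGF19 minus vehicle, and the mean over both gave 0.22 (adjusted p = 0.26). The call was also lost without the trend (0.0514), without vehicle replicate 1 (0.0966) and without FGF19 replicate 2 (0.0994).

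Rrp1b, a nucleolar protein of large-subunit processing, had on 1 probe set the smallest p of the members that were lower after FGF19. It was measured at 114 and 116 with vehicle, 97.7 and 70.9 after FGF15, and 75.8 and 76.2 after FGF19. All 4 hormone arrays lay below both vehicle arrays. The differences were -0.35 after FGF15 (95% interval -0.66 to -0.04, adjusted p = 0.144) and -0.44 after FGF19 (95% interval -0.76 to -0.13, adjusted p = 0.063), and neither passed. Probe sets of similar brightness gave -0.24 and -0.13 after FGF15 and -0.07 and -0.10 after FGF19, and the mean over all 3 was -0.24 and -0.21. The FGF19 value of the brightest passed with a filter at the 50th percentile, with only the arrays compared in the fit and without either FGF15 array.

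The 3 proteins of the PeBoW complex, which processes the RNA of the large subunit, had values near the spread between arrays. Pes1 differed by -0.11 after FGF15 and 0.06 after FGF19, Bop1 by -0.17 and 0.00, and Wdr12 by -0.02 and 0.17. Nop16 was at 267 and 266 with vehicle, 269 on both FGF15 arrays and 287 and 279 after FGF19, a difference of 0.08 that did not pass (adjusted p = 0.57) although the groups did not overlap. Ebna1bp2, Nop2 and the RNA helicase Ddx21 differed by at most 0.15 in size from vehicle after either hormone.

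In the nucleolar group, Nolc1 rose after FGF19. It encodes a chaperone that binds snoRNPs and shuttles between the nucleolus and the cytoplasm. The signal was 173 and 172 with vehicle, 189.6 and 181 after FGF15, and 239 and 253 after FGF19. The vehicle arrays were the lowest and the FGF19 arrays the highest, with no overlap. The increase after FGF19 was 1.36-fold (log2 0.45, 95% interval 0.24 to 0.65, SE 0.09, n = 2, adjusted p = 0.00958). FGF15 minus vehicle was 0.09 (adjusted p = 0.583) and FGF19 minus FGF15 was 0.36 (adjusted p = 0.0583). Its other probe sets gave 0.05 and 0.32 for FGF19 minus vehicle, neither of which passed, and the mean over all 3 gave 0.27 (adjusted p = 0.0634). The call was lost without vehicle replicate 1 (0.0583), vehicle replicate 2 (0.056) or FGF19 replicate 2 (0.0723).

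The abundant nucleolar proteins did not pass in any comparison. Nucleolin (Ncl), which binds precursor rRNA, was at 1087 and 1105 with vehicle, 948 and 1033 after FGF15, and 993 and 1137 after FGF19. Nucleophosmin (Npm1), a histone and ribosome chaperone, differed by -0.10 (95% interval -0.32 to 0.11) after FGF15 and -0.01 after FGF19. Gnl3, nucleostemin, a GTPase of the nucleolus, differed by -0.20 and -0.01.

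The core proteins of the box C/D snoRNPs, which methylate the ribose of rRNA, went in different directions without passing the test. Nop58 was at 230.4 and 243 with vehicle, 292 and 305 after FGF15, and 261 and 333 after FGF19, and all 4 hormone arrays were above vehicle. Its differences were 0.30 (adjusted p = 0.106) and 0.28 (adjusted p = 0.118), and both passed when arrays were centred on their medians. Its partner Nop56 was at 176 and 178 with vehicle, 139 and 152.5 after FGF15, and 170.1 and 160.3 after FGF19. The differences of Nop56 were -0.24 (adjusted p = 0.161) and -0.09, and a second probe set gave -0.29 and 0.06. Fibrillarin (Fbl), the methyltransferase itself, was at 358 and 343 with vehicle, 321 and 275 after FGF15, and 300.1 and 273 after FGF19. Both hormone groups of Fbl lay below vehicle, by -0.22 (adjusted p = 0.177) and -0.26 (adjusted p = 0.0957). A second probe set of Fbl, which can hybridise with related transcripts, gave -0.11 after FGF15 and 0.00 after FGF19, with overlapping arrays for FGF19.

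Of the box H/ACA proteins, which direct pseudouridylation, Nhp2 and Gar1 were measured. The only probe set of Gar1 and the brighter of 2 for Nhp2 can hybridise with related transcripts. Gar1 was at 174 and 177 with vehicle, 144 and 132 after FGF15, and 206 and 165 after FGF19. Its FGF15 arrays were the lowest, and the FGF19 arrays lay on both sides of vehicle. Gar1 differed by -0.29 after FGF15 (adjusted p = 0.138) and 0.06 after FGF19, and FGF19 minus FGF15 was 0.35 (95% interval 0.10 to 0.61, adjusted p = 0.135). Nhp2 differed on its brighter probe set by -0.14 and 0.08 from vehicle, and by 0.23 between the hormones (adjusted p = 0.309). Its other probe set was at 339.8 and 412 with vehicle, 304 and 276 after FGF15, and 361 and 341 after FGF19. It gave a larger difference after FGF15, -0.34 (adjusted p = 0.0667 over all probe sets), -0.09 after FGF19 and 0.25 between the hormones.

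No measured member of the RNA polymerase I group passed. By limma, 0 of 4 passed after either hormone, and 1 (Ubtf) was lower at an unadjusted p under 0.05 after each. Ubtf, the factor that binds the promoter of ribosomal DNA, was at 245 and 216 with vehicle, 199.8 and 183 after FGF15, and 189 and 173 after FGF19. All 4 hormone arrays lay below vehicle, by -0.23 (adjusted p = 0.183) and -0.30 (95% interval -0.52 to -0.07, adjusted p = 0.0813). Polr1a, the largest subunit, is dim and varied between arrays of a group, from 77.2 to 113 with vehicle, 83.1 to 104 after FGF15 and 55.1 to 87.1 after FGF19. Its interval for FGF19 minus vehicle, -0.73 to 0.12, is wide, and its other 2 probe sets gave -0.36 and -0.52 after FGF15 without passing. Polr1b differed by -0.12 and 0.06, and Polr1c by -0.19 and -0.06.

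In translation, the members that changed against vehicle were the eIF4E-binding proteins, Eif4ebp1 after FGF15 and Eif4ebp2 after FGF19. Eif4ebp1, the best known of these repressors and a target of mTORC1, fell after FGF15. Scaled signals were 669 and 709.7 with vehicle, 488 and 453 after FGF15, and 659 and 578 after FGF19. Both FGF15 arrays were below the other 4, and the FGF19 arrays were below vehicle. The decrease after FGF15 was 1.44-fold (log2 -0.52, 95% interval -0.71 to -0.34, SE 0.08, n = 2, adjusted p = 0.00273). It held in all 12 other settings, with values of -0.56 to -0.40 and adjusted p of 0.00109 to 0.0403, and without each of the 6 arrays in turn. Eif4ebp1 is the only one of the 6 members that changed for which a call against vehicle held in every setting run.

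After FGF19 Eif4ebp1 differed by -0.15 from vehicle (adjusted p = 0.268), but it fell when the mean of its probe sets was used. It was 1.29-fold higher after FGF19 than after FGF15 (log2 0.37, 95% interval 0.19 to 0.56, adjusted p = 0.0346). This call between the hormones was lost without the filter (0.0666), without the trend (0.178), with only the arrays compared (0.0629) and with the mean of the gene's probe sets (log2 0.04, adjusted p = 0.851). It was lost as well without replicate 1 (0.0623) or 2 (0.0628) of vehicle, without replicate 1 (0.0684) or 2 (0.141) of FGF15 and without FGF19 replicate 1 (log2 0.28, adjusted p = 0.216).

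The 3 probe sets of Eif4ebp1 did not give the same picture of FGF19. The probe set used above carries a suffix for probes that can hybridise with related transcripts. The next brightest was at 437 and 481 with vehicle, 334 and 313 after FGF15, and 390.5 and 394.5 after FGF19. It fell after FGF15 (log2 -0.47, adjusted p = 0.00602 over all probe sets) and differed by -0.21 after FGF19 (adjusted p = 0.138). The dimmest was at 58.7 and 56.8 with vehicle, 47.6 and 44.3 after FGF15, and 23.2 and 21.9 after FGF19. Here FGF19 was the lowest group, with a fall of 0.72 on the log2 scale (adjusted p = 0.0132 over all probe sets), and FGF15 differed by -0.20 (adjusted p = 0.447). After FGF15, then, all 3 probe sets lay below vehicle and the brighter 2 passed.

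**Figure D3:**
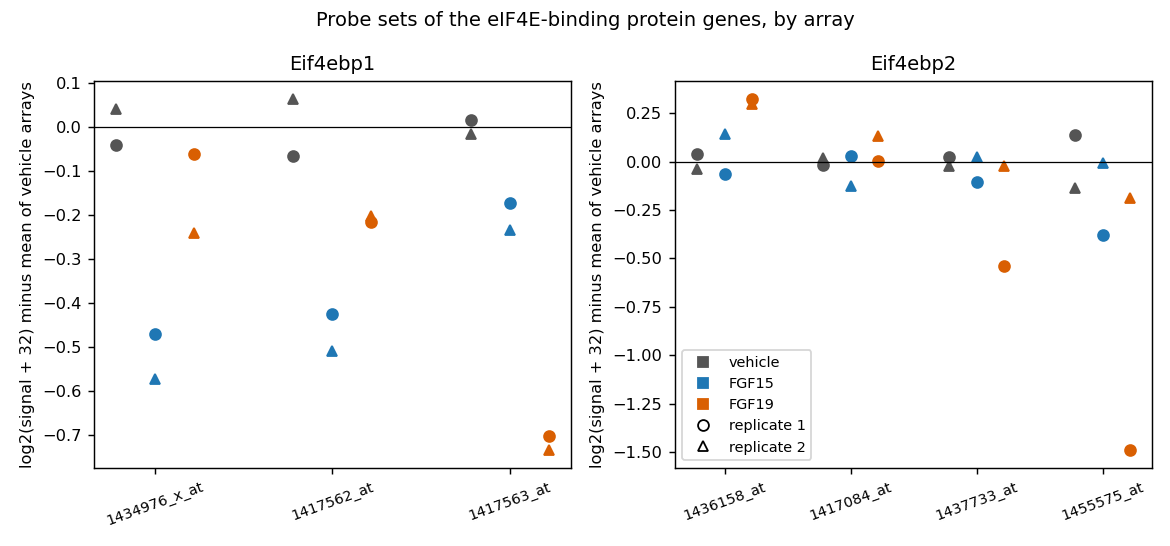
Each probe set of Eif4ebp1 (left) and Eif4ebp2 (right) by array, as log2(signal + 32) minus the mean of the vehicle arrays, with circles for replicate 1 and triangles for replicate 2. The FGF15 arrays of Eif4ebp1 lie below vehicle on all 3 probe sets, and FGF19 replicate 1 lies lowest of the 6 arrays on the third and the fourth probe set of Eif4ebp2.

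Eif4ebp2, a second repressor of eIF4E, rose after FGF19 on its brightest probe set. That probe set was at 699 and 661 with vehicle, 649.6 and 754 after FGF15, and 859.8 and 843 after FGF19. Both FGF19 arrays were the highest, while FGF15 overlapped vehicle. The increase was 1.24-fold (log2 0.31, 95% interval 0.13 to 0.49, SE 0.08, n = 2, adjusted p = 0.031), with FGF15 at 0.04 (adjusted p = 0.8) and FGF19 minus FGF15 at 0.27 (adjusted p = 0.103). Its other probe sets went otherwise. One gave 0.07 (adjusted p = 0.646 over all probe sets), another -0.28 (0.246), and the third was at 286 and 232 with vehicle, 190.4 and 256 after FGF15, and 71.1 and 222 after FGF19, a difference of -0.84 (0.133).

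The direction for Eif4ebp2 therefore turned with the choice of probe set, and the mean of its probe sets gave -0.11 (adjusted p = 0.509). FGF19 replicate 1 was the lowest array on the last 2 of these probe sets. The same array stood apart on control probe sets. Its 18S rRNA signal was 32.3 against 4.25 to 5.82 on the other 5, and its ratio of 3′ to 5′ signal was 1.63 against 1.30 to 1.39 for actin and 3.38 against 2.27 to 2.73 for pyruvate carboxylase. The part of this array's RNA in the Eif4ebp2 values was not tested. The rise was also lost with quantile normalization (adjusted p = 0.0604), without the filter (0.052), without the trend (0.126), and without vehicle replicate 1 (0.0971), vehicle replicate 2 (0.161), FGF19 replicate 1 (0.124) or FGF19 replicate 2 (0.0896).

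The initiation factors themselves did not pass. Eif4e, the protein that binds the cap and that both repressors hold, was at 683 and 519 with vehicle, 554 and 589 after FGF15, and 549.8 and 594 after FGF19, with differences of -0.06 for both hormones (95% intervals -0.31 to 0.19). A second, dimmer probe set of Eif4e was at 181 and 221 with vehicle, 164 and 160.0 after FGF15, and 144 and 153 after FGF19. All 4 hormone arrays were below vehicle there, by -0.26 (adjusted p = 0.186 over all probe sets) and -0.36 (0.0639), which did not pass, and the dimmest of its probe sets gave 0.12 and 0.01. Eif3b, a scaffold subunit of eIF3, was at 597 and 521 with vehicle, 511 and 402 after FGF15, and 509.7 and 476 after FGF19. All 4 hormone arrays lay below vehicle and the differences were -0.28 (adjusted p = 0.134) and -0.17 (adjusted p = 0.35). Without FGF15 replicate 1 the fall of Eif3b after FGF15 passed (log2 -0.44, adjusted p = 0.0314). Eif5, which triggers GTP hydrolysis at the start codon, differed by -0.09 and -0.11 on its brightest probe set, and 1 of its other 3 fell after FGF15 (log2 -0.31, adjusted p = 0.0389 over all probe sets).

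The elongation factors did not pass, with narrow intervals. Eef2 was at 3690.1 and 3736 with vehicle, 3319 and 3468 after FGF15, and 3371 and 3605 after FGF19. Its differences were -0.13 (95% interval -0.28 to 0.02) and -0.09, so all 4 hormone arrays were below vehicle by less than the test could separate. Eef1b2, an exchange factor for the tRNA carrier eEF1A, was at 2229 and 2162 with vehicle, 2009 and 2051 after FGF15, and 2009 and 2020 after FGF19. It differed by -0.11 (adjusted p = 0.282) and -0.12 (adjusted p = 0.22), with a fall after FGF19 that passed with quantile normalization alone among the 12 settings. Rps6, the small-subunit protein that the S6 and RSK kinases phosphorylate, was at 177 and 193 with vehicle, 191 and 187 after FGF15, and 254 and 177 after FGF19. Its differences were 0.03 and 0.17 and did not pass, and the higher FGF19 value is that of replicate 1 alone.

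Counted over arrays, 5 members had both FGF15 arrays above both vehicle arrays and 15 had both below, against 22.2% and 32.7% of all genes. For FGF19 these counts were 9 and 8, against 21.4% and 37.2%. Between the hormones, 15 members had both FGF19 arrays above both FGF15 arrays and 2 (Imp3 and Nop14) had both below, against 20.1% and 25.8%. Over the 69 member probe sets that passed the filter, 53 lay below vehicle after FGF15 and 42 after FGF19, and 48 were higher after FGF19 than after FGF15. Signs were not counted over all probe sets. Over all genes, 5619 of 9685 were negative after FGF15 and 5935 after FGF19, and 4360 were positive between the hormones. After FGF15 1 member probe set rose and 4 fell (background 4.73% and 5.81% of 16969 probe sets), and after FGF19 3 rose and 1 fell (5.15% and 6.34%). Between the hormones 2 were higher after FGF19 (1.97%) and 0 lower by limma. Of the 21 members with several probe sets, all those of a gene had the same sign in 14 after FGF15, 9 after FGF19 and 8 between the hormones. Agreement in sign was not counted over all genes, and nothing particular to the members is read from it.

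The rest of the pathway was read from other lists, with no gene of the 44 in them. Beside each list count stand the shares of all genes tested. After FGF15 5.91% rose and 6.67% fell, after FGF19 6.29% rose and 7.27% fell, and between the hormones 2.41% were higher and 1.89% lower. At an unadjusted p under 0.05 by limma, 1456 of 9685 genes were lower after FGF15 and 1655 after FGF19. The lists are small, and nothing particular to them is read from their counts. Of 80 other ribosome biogenesis factors tested, 2 rose after FGF15 (Utp11 and Ltv1) and 4 after FGF19 (Heatr1, Ltv1, Utp11 and Brix1), with 0 falling after either by limma and 5 and 4 lower at an unadjusted p under 0.05. Ltv1, an assembly factor of the small subunit, was at 240.4 and 229 with vehicle, 316 and 305 after FGF15, and 323 and 339.5 after FGF19. Its rise after FGF19 (log2 0.44, adjusted p = 0.00563) held in every setting run. Heatr1, a factor of the small-subunit processome, rose by 0.57 after FGF19 (adjusted p = 0.000912), but its second probe set fell and the mean of both gave 0.01. Without vehicle replicate 1 the FGF15 and FGF19 counts of this list were 0 and 2, without vehicle replicate 2 they were 1 and 3, without either FGF15 array the FGF15 count was 1, and without FGF19 replicate 1 the FGF19 count was 2. Centred on array medians, 4 and 11 rose.

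Among 43 other cytosolic ribosomal proteins, 1 rose after FGF15 (Rpl41) and 3 after FGF19 (Rpl22, Rpl8 and Rpl27), and 0 fell by limma, with 6 and 4 lower at an unadjusted p under 0.05. Their medians were -0.06 and -0.03. The brightest probe set of Rpl41 gave 0.40 after FGF15, and its others gave -0.03, 0.32 and -0.23. After FGF19 the other probe set of Rpl22 gave -0.15, and those of Rpl27 gave 0.12 and -0.04. None of these other probe sets passed. The FGF19 count was 0 without vehicle replicate 1, vehicle replicate 2 or FGF19 replicate 1. Without FGF19 replicate 2 it was 1 rising and 7 falling. The FGF15 count was 0 without vehicle replicate 2 or FGF15 replicate 2, 1 fell without FGF15 replicate 1, and 2 fell without either FGF19 array. The fallers after FGF15 and FGF19 numbered 3 and 1 with quantile normalization, 1 and 1 with cyclic loess, and 5 and 3 probe sets over all probe sets. With only the arrays compared 2 fell after FGF15, and 1 did with the mean of probe sets. The risers after FGF19 were 5 with centring, 1 with the mean of probe sets and 0 without the filter or the trend. Of 8 other RNA polymerase I subunits and factors, 1 fell after FGF15 (Taf1b, adjusted p = 0.0343), and none passed after FGF19, where 1 was higher and 2 were lower at an unadjusted p under 0.05. The call of Taf1b was lost with centring and in all 6 fits that left out 1 array.

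Of 33 other initiation factors, 2 rose (Eif3a and Eif2b4) and 1 fell (Eif4e3) after FGF15. After FGF19, 3 rose (Eif1a, Eif3f and Eif2b4) and 1 fell (Eif4e3). Eif3a rose after FGF15 on its brightest probe set (log2 0.41). Its others gave 0.13, -0.10 and 0.32 without passing, and the call was lost with the mean of its probe sets. Eif4e3, a relative of eIF4E that can bind the cap, was at 166 and 164 with vehicle, 100.4 and 90.0 after FGF15, and 68.0 and 67.4 after FGF19. It fell by 0.63 after FGF15 (adjusted p = 0.00596) and 0.98 after FGF19 (adjusted p = 0.000417) on the log2 scale, in every setting run. Eif1a, which helps the small subunit scan for the start codon, was at 697 and 712 with vehicle, 767 and 800.1 after FGF15, and 1109 and 1051 after FGF19. It rose after FGF19 (log2 0.59, adjusted p = 0.000317) in every setting run, and was higher than after FGF15 (log2 0.45, adjusted p = 0.00362), a difference that did not pass without the trend. The counts of risers after FGF15 were 0 without FGF15 replicate 1 or either vehicle array and 1 without FGF15 replicate 2, and those after FGF19 were 1 without vehicle replicate 1 or FGF19 replicate 1. With centring on array medians they were 4 and 8. Of 7 elongation and termination factors, Gspt1 rose after FGF15 and Etf1 after FGF19. Both calls were lost without either vehicle array. That of Gspt1 was lost also without FGF15 replicate 2, and that of Etf1 without either FGF19 array. Of the 12 other settings, Gspt1 kept its call in 7 and Etf1 in 5. Other probe sets of Gspt1 gave 0.24 and -0.12 after FGF15, and those of Etf1 0.31, 0.25, -0.05 and -0.22 after FGF19. None of these other probe sets passed.

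**Figure D4:**
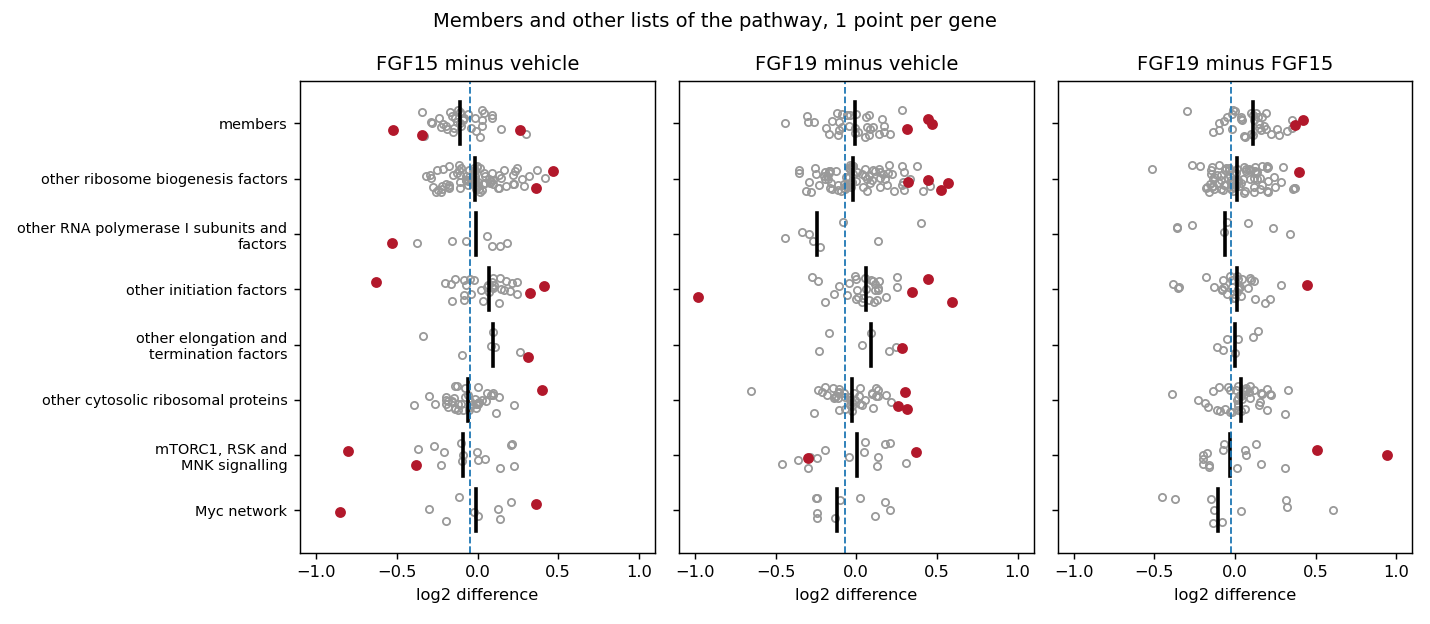
Log2 differences of the members and of 7 other lists of the pathway, 1 point per gene, with red points at an adjusted p under 0.05, a black bar at each list's median and a dashed line at the median of all 9685 genes tested. The members' bar lies at -0.11 for FGF15 minus vehicle, -0.01 for FGF19 minus vehicle and 0.11 for FGF19 minus FGF15.

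Of 16 genes of mTORC1, RSK and MNK signalling, 2 fell after FGF15 (Ddit4 and Mknk2), and centring on array medians added 2 that rose. Both were higher after FGF19 than after FGF15, as Rrs1 and Eif4ebp1 were. For each of these genes the fall and the difference between the hormones use the same FGF15 arrays, and they are not independent results. Ddit4, an inhibitor of mTORC1, was at 153 and 112 with vehicle, 61.5 and 61.4 after FGF15, and 161 and 134 after FGF19. Its fall after FGF15 was 0.80 on the log2 scale (adjusted p = 0.00559, and 0.0553 without vehicle replicate 1), and FGF19 minus FGF15 was 0.94 (adjusted p = 0.00455, and 0.0644 without FGF19 replicate 1). Mknk2, a kinase that phosphorylates eIF4E, was at 945 and 1011 with vehicle, 767 and 717 after FGF15, and 1042 and 1099 after FGF19. It fell by 0.38 on the log2 scale after FGF15 (adjusted p = 0.00638, and 0.07 without vehicle replicate 2), and FGF19 minus FGF15 was 0.51 (adjusted p = 0.00259). Without the intensity trend neither call of Mknk2 passed. A second probe set of Mknk2 was at 487 and 505 with vehicle, 268 and 265 after FGF15, and 311 and 440 after FGF19. It fell after FGF15 (log2 -0.82, adjusted p = 0.00322 over all probe sets). After FGF19 it differed by -0.39 (0.0843), where the first gave 0.13, and FGF19 minus FGF15 was 0.43 (0.122).

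After FGF19 Pdcd4, an inhibitor of the helicase eIF4A, rose and Deptor, an inhibitor of mTOR, fell on its brightest probe set. Both calls were lost without the trend, without vehicle replicate 1 and without FGF19 replicate 2. The fall of Deptor was lost without vehicle replicate 2, with centring and with the mean of its probe sets as well. Its brightest probe set differed by -0.10 after FGF15 (adjusted p = 0.478 over all probe sets). A dimmer probe set was at 273 and 307 with vehicle, 203 and 107 after FGF15, and 175 and 191 after FGF19. It fell after FGF15 (log2 -0.83, adjusted p = 0.0258 over all probe sets) and differed by -0.58 after FGF19 (0.0913). Another gave 0.08 after FGF15 and -0.39 after FGF19, and neither passed. Of 10 genes of the Myc network, Mxi1 rose and Mycn fell after FGF15. Mycn was dim, at 42.4 and 27.1 with vehicle, 5.56 and 4.04 after FGF15, and 23.7 and 24.6 after FGF19. Its FGF15 signals were under 14.0, the signal of the filter, so the size of this fall is uncertain. A second probe set of Mxi1 lay lower after FGF15 (log2 -0.61, adjusted p = 0.0576 over all probe sets), and the mean of both turned its direction (-0.12). Both calls were lost without FGF15 replicate 2 or vehicle replicate 1, and Mxi1's without FGF15 replicate 1 or either FGF19 array. After FGF19 0 passed by limma, with 0 at an unadjusted p under 0.05. Myc, which drives ribosome biogenesis in growing cells, was at 56.2 and 52.6 with vehicle, 50.2 and 37.0 after FGF15, and 62.3 and 61.0 after FGF19. Its differences of -0.20 (adjusted p = 0.45) and 0.12 (adjusted p = 0.656) did not pass.

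Whole liver holds several cell types, and fewer cells of a type and less RNA per cell cannot be told apart. The 10 hepatocyte markers were all bright, with a summed signal of 101370 to 102350 with vehicle, 86932 to 94493 after FGF15 and 74778 to 94082 after FGF19. The 11 measured markers of Kupffer cells and macrophages summed to 6427 to 6525 with vehicle, 3484 to 3608 after FGF15 and 3499 to 3534 after FGF19, and 10 and 9 of the 11 fell. None of the 11 was at 0. The 4 neutrophil markers summed to 492 to 523, 264 to 271 and 402 to 449.9. They did not move together. After FGF15 2 fell (S100a8 and S100a9) and 2 had positive differences that did not pass. After FGF19 1 fell (S100a8) and 1 had a positive difference that did not pass. Endothelial markers (10 measured), stellate markers (8), cholangiocyte markers (5, 2 of them under the filter), lymphocyte markers (7, 1 under it) and erythroid markers (3, 1 under it) had 0 to 2 calls each against vehicle. The part of these cell types in the members' values was not tested. Beside the members' counts stand those of single arrays. Of the 72 member probe sets, 17 were highest on each vehicle array, 4 and 6 on replicates 1 and 2 of FGF15, and 17 and 11 on those of FGF19. This count was not made over all probe sets, and nothing particular to the members is read from it. The median signal of all probe sets was 61.4 and 59.4 with vehicle, 55.2 and 51.3 after FGF15, and 50.8 and 52.2 after FGF19.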

How the data were processed

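Per the values themselves, the deposited files hold a linear signal intensity for each probe set on each array, which the authors had scaled to a mean of about 200.1 on every array after trimming 2% at each end. The sources used here give no software for these intensities and no detection call. Of 22690 probe sets, 64 were controls, 20380 were paired with 1 gene by the platform annotation, 691 with several and 1555 with none. For this work each of 12393 genes was represented by its probe set of highest mean, and 2708 genes with a mean log2 value under the 25th percentile of probe sets (a signal of 14.0) were left out.

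Values of log2(signal + 32) were fitted in R 4.3.3 by lmFit of limma 3.58.1, followed by eBayes with a trend on intensity, all 6 arrays in 1 model, with 3 residual and 6.83 prior degrees of freedom. Two-sided p-values were adjusted by Benjamini-Hochberg over 9685 genes, and 0.05 was the threshold. The number of arrays limits the precision, with a median standard error of 0.13 on the log2 scale. Folds are on the log2(signal + 32) scale and understate changes of dim genes. The steps were tested on simulated data. Arrays were placed in groups by their titles.

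The members and lists were chosen with earlier results of these data known. Named in full are all members called in a comparison and up to 12 more with the smallest p, at most 4 called genes per other list and comparison, Cyp7a1 and Myc. The alternatives were pseudocounts of 16 and 64, quantile normalization, centring on array medians, cyclic loess, no filter or a 50th-percentile filter, the mean of a gene's probe sets, all probe sets, no intensity trend, a replicate block, only the arrays compared, and each array left out in turn. Where that left 1 array in a group, its spread was taken to be that of the others. Promoters are from a RefSeq table (250 bases before to 50 after each start), read with Python 3.11.15 and pandas 2.3.3. Figures used matplotlib 3.10.9.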

Additional observations from a re-analysis of the deposited data

Results flagged for a closer look

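FGF19 and FGF15 differed in the fit itself for 2 members and for 5 other genes named above. Eif4ebp1 was higher after FGF19 than after FGF15 by 0.37 on the log2 scale and Rrs1 by 0.42. Of the other genes of the pathway, Ddit4 was higher by 0.94, Mknk2 by 0.51, Eif1a by 0.45 and Heatr1 by 0.39. The value of Heatr1 is that of its brighter probe set. Its other probe set gave -0.34 between the hormones, and the mean of both gave 0.03. The call of Heatr1 was lost with that mean and without the trend. Cyp7a1 was lower after FGF19, at a difference of -0.87. A signal outside the genes tested was that of the 18S rRNA control probe set, at 32.3 on FGF19 replicate 1, against 5.44 and 5.80 on the vehicle arrays.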

How the results depend on the processing

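Of the values of single genes under other settings, 861 kept their direction and side of the threshold, 167 no longer passed, 11 newly passed and 3 reversed. The mean of a gene's probe sets reversed Eif4ebp2 for FGF19 minus vehicle (-0.11) and FGF19 minus FGF15 (-0.084) and Mxi1 for FGF15 minus vehicle (-0.12). Members higher after FGF15 (1) were 0 with quantile normalization, cyclic loess or no trend and 2 with centring on medians. Members lower after FGF15 (2) were 1 with centring or no trend, and over all probe sets 4 probe sets of 3 members (Eif4ebp1, Eif5 and Rrs1) were lower. Members higher after FGF19 (3) were 5 with centring, 0 with the mean of probe sets and 1 with no trend. Members lower after FGF19 (0) were 1 with quantile normalization (Eef1b2), the 50th-percentile filter or only the arrays compared (Rrp1b), and the mean of probe sets or all probe sets (Eif4ebp1). Members higher after FGF19 than after FGF15 (2) were 1 without the filter, with the mean of probe sets or with only the arrays compared, and 0 with no trend. The causes were not tested. Leaving out 1 array gave 0 to 1 member higher and 1 to 4 lower after FGF15, 0 to 3 higher and 0 to 1 lower after FGF19, and 0 to 1 higher and 0 lower between the hormones. Over all genes, leaving out 1 array gave 271 to 577 genes higher and 267 to 622 lower after FGF15, where the full fit gave 572 and 646, 316 to 613 and 283 to 747 after FGF19, where it gave 609 and 704, and 137 to 192 and 97 to 170 between the hormones, where it gave 233 and 183. The replicate number as a block left the members' counts at 1 higher and 2 lower after FGF15, 3 and 0 after FGF19 and 2 and 0 between the hormones. Deviations of arrays with the same number correlated at 0.0702 (vehicle and FGF15), -0.0141 (vehicle and FGF19) and 0.0446 (FGF15 and FGF19). These values are low, but they cannot exclude that arrays with the same number were paired, and the labels name no pairing. Signal limits the dim members, as 3 of the 72 member probe sets, of Eif4ebp2, Nop16 and Rps6, lay under the filter.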
